A study of Mus musculus with 4 samples.

Results

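The comparison set 2 macrophage cultures given palmitic or oleic acid against 2 given linoleic acid or the control, on 4 microarrays of mouse peritoneal macrophages. Genes were chosen by their brightness: the highest of the 4 array values had to reach the overall median, log2 7.09, which kept 11174 of 19938 genes. For each gene the mean of the linoleic acid and control arrays was subtracted from the mean of the palmitic and oleic acid arrays, and the gene was marked as having no overlap when both arrays of 1 side lay beyond both arrays of the other. The gap is the distance between the nearest arrays of the 2 sides. The sides, and so the genes given first, were selected on the log2 values of these same arrays, and each side joins 2 different treatments that are not replicates of each other. Every value below is therefore a description of 4 arrays, with no test and no estimate of the spread between samples.

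The palmitic acid group was given 500 µM of a saturated fatty acid with 16 carbons and 0 double bonds. The oleic acid group was given 500 µM of a fatty acid with 18 carbons and 1 double bond. The linoleic acid group was given 500 µM of a fatty acid with 18 carbons and 2 double bonds. The control is labelled as albumin alone, whereas the treatment notes describe its vehicle as a mixture of ethanol and KOH. All 4 groups came from wild type C57BL/6 mice, 8 to 12 weeks of age, whose peritoneal macrophages had been elicited 3 days earlier with 1 mL of 4% thioglycolic acid. Adherent cells were kept, and all groups were incubated for 6 h. Fatty acids were complexed to bovine serum albumin. RNA of 3 samples per group was pooled, with an RNA integrity number above 8, and 100 ng was labelled for 1 array per group. The labels do not say if each pool drew on separate animals. Elicited and adherent cells of this kind differ from resident peritoneal macrophages, which limits what they model.

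Fatty acids that enter a macrophage are esterified and stored in lipid droplets, or carried into mitochondria and oxidised. They are also ligands of the peroxisome proliferator-activated receptors (PPARs), nuclear receptors that switch on genes of droplet coating and oxidation. The SREBP transcription factors control the synthesis of cholesterol and of fatty acids, and are held back by sterols.

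The arrays resembled each other closely. Their median log2 values over all probes were 7.08 with palmitic acid, 7.07 with oleic acid, 7.13 with linoleic acid and 7.09 in the control. Correlations between arrays over all probes ran between 0.991, for palmitic and oleic acid, and 0.996, for oleic acid and the control. Of the 21 macrophage markers listed, 20 were measured and 19 kept, and the summed linear level of the kept markers was 95302 and 101176 with palmitic and oleic acid, against 97460 and 98012 with linoleic acid and in the control. The F4/80 gene Adgre1 and the lysosomal gene Cd68 lay above log2 12 on every array. Other markers of the list were dim. Timd4, Marco and Icam2 reached at most 7.25, 7.57 and 7.67, and Cd163 was below the filter. Of 18 fibroblast and mesothelial markers 12 were kept, and these are taken up with Pdgfrb.

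Sides without overlap were common and mostly close together. Both palmitic and oleic acid arrays lay above both others in 1540 genes (13.8%), and below both in 1849 (16.5%), which makes 3389 in all (30.3%). This balance turned when the array medians were set equal, with 2460 genes higher and 1202 lower. The gap was under 0.1 on the log2 scale in 1110 of the higher genes (72.1%) and in 1372 of the lower genes (74.2%), with a median of 0.05 in each direction. A gap of at least 1.5-fold, the size used for the genes named first, was reached by 9 higher genes (0.0805%) and 22 lower genes (0.197%), or 31 in all (0.277%). A gap of at least 2-fold was left in 3 higher and 3 lower genes. Where the difference between side means was counted without regard to overlap, a size of 1.5-fold or more was reached by 42 higher genes (0.376%) and by 75 lower genes (0.671%), or 117 in all (1.05%). The higher genes were 35.9% of these 117, and 46.2% once the array medians were set equal. Without the oleic acid array the share was 53.0%, and without the linoleic acid array 50.5%, so the majority of lower genes depended on these arrays.

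At the edges of these rules the values could hardly be told apart. Predicted genes, clone names, some large receptor families and small RNA genes were passed over when these edge genes were picked. Among the rest Cyb561, with a highest value of 7.09109, was the dimmest gene kept, and Vamp1, with 7.09092, the brightest left out. Otp was called higher by a gap of 3.12e-06 and Clec12a lower by 3.1e-05. Atp2a1 and Tmem44 each had a gap of exactly 0, a tie between 2 arrays, and counted as overlapping.

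**Figure D1:**
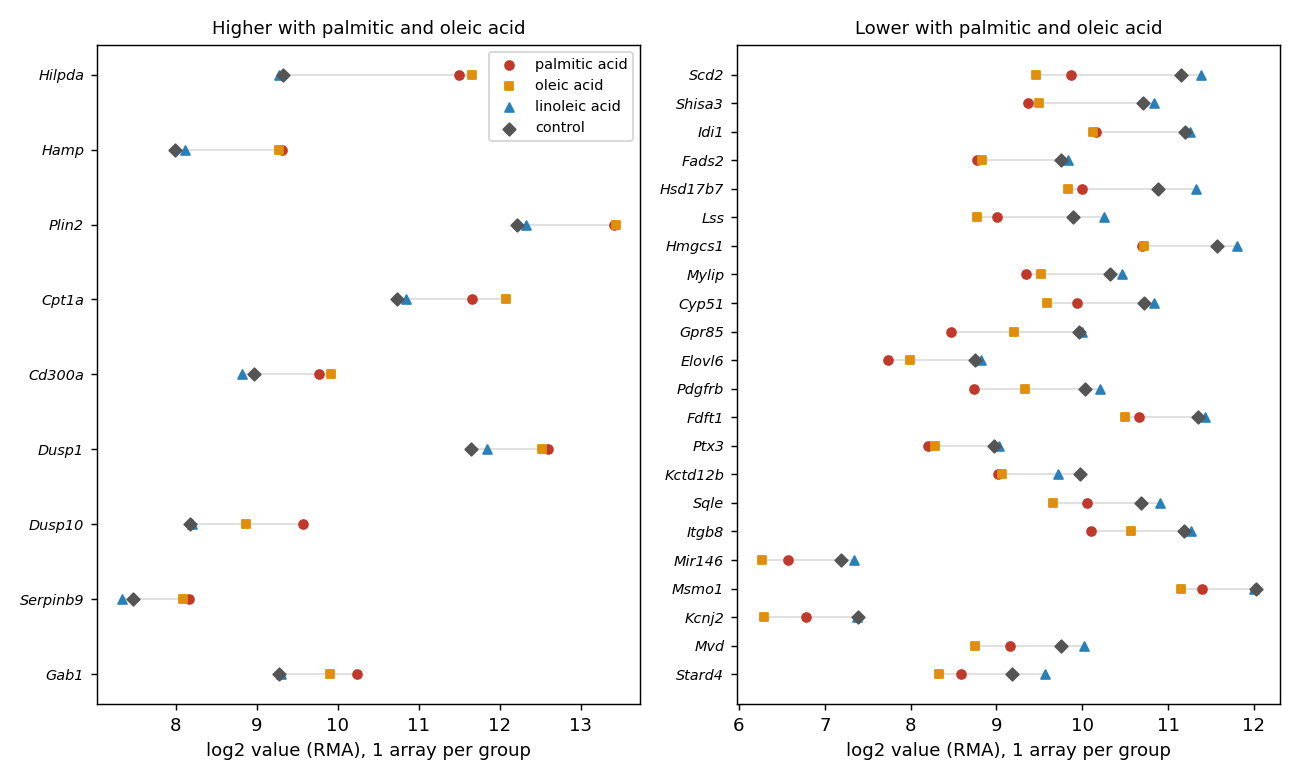
Log2 values (RMA) of the 9 genes higher (left) and the 22 genes lower (right) with palmitic and oleic acid than with linoleic acid and in the control, with no overlap and a gap of at least 1.5-fold. Each symbol is 1 array and each grey line spans the 4 arrays. Hilpda has the widest gap of all, 2.17, and Scd2 the widest of the lower genes, 1.28.

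The genes of fatty acid storage and oxidation headed the higher genes. Hilpda, whose product sits on lipid droplets and inhibits the triglyceride lipase ATGL, stood at 11.49 and 11.66 with palmitic and oleic acid, against 9.27 and 9.32 with linoleic acid and in the control. The arrays of the 2 sides were more than 2 log2 units apart, while the arrays within each side nearly coincided. Its difference of side means was 2.28, or 4.86-fold, the largest of the 11174 genes. Plin2, the droplet coat protein perilipin 2, read 13.41 and 13.43, against 12.32 and 12.21, a difference of 1.15 with a gap of 1.09. Cpt1a, the carnitine palmitoyltransferase that admits long-chain fatty acids to mitochondria, read 11.66 and 12.08 with palmitic and oleic acid, against 10.84 and 10.73 with linoleic acid and in the control. Oleic acid was the highest array for Cpt1a, which had a difference of 1.08, and palmitic acid did not overlap the lower pair.

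These 3 genes belong to a list of 23 PPAR targets, of which 19 were measured and 15 kept. Among the 15, 7 were higher and 2 lower without overlap, 3 passed the 1.5-fold gap, and the median difference was 0.04, beside -0.0055 over all kept genes. Angptl4, a secreted inhibitor of lipoprotein lipase, read 7.67 and 8.22 with palmitic and oleic acid, against 7.29 and 7.27 with linoleic acid and in the control, dim on all 4 arrays. The mitochondrial acyl-CoA thioesterase gene Acot2 was higher by 0.41, and so was Slc25a20, the carrier that moves acylcarnitines into mitochondria. Fabp4, a fatty acid binding protein of macrophages and fat cells, was higher by 0.33. Palmitic acid lay above oleic acid in 3 of the 15, so that oleic acid gave the higher array in most PPAR targets. Cd36, the fatty acid translocase, and Fabp5 overlapped, and Lpl, lipoprotein lipase, was lower with a difference of -0.08.

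Other genes of droplets and oxidation differed less. Of 24 kept droplet and triglyceride genes 11 were higher and 3 lower without overlap, with a median difference of 0.08. Plin3, another droplet coat protein, stood at 10.48 and 10.09 with palmitic and oleic acid, against 9.86 and 9.87 with linoleic acid and in the control. Mgll, monoglyceride lipase, was high mainly on the palmitic acid array, with 9.33 and 8.65 against 8.62 and 8.58. Pnpla2, which codes for ATGL itself, was higher by 0.25. The acyltransferases Gpam and Dgat2, which carry out the first and the last step of triglyceride synthesis, went the other way and had differences of -0.35 and -0.38. Among 24 kept fatty acid oxidation genes 7 were higher and 1 lower, with a median of 0.03. That median was -0.071 without the oleic acid array, and 17 members were higher without the palmitic acid array. Fewer values had to separate then, and genes of any kind called higher rose as well, from 1540 to 3944. The thiolase Acaa2 was higher by 0.33 and the electron transfer dehydrogenase Etfdh by 0.26. Of 12 kept genes of fatty acid uptake, binding and activation, 2 were higher and 2 lower, near the 13.8% and 16.5% of all kept genes. Gpr84, a receptor for medium-chain fatty acids, was among the lower ones at 11.98 and 12.53, against 12.80 and 12.68.

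Cholesterol synthesis supplied 9 of the 22 lower genes with a 1.5-fold gap. Of 21 enzymes listed, 18 were measured and all 18 kept. Of these, 14 were lower and 0 higher without overlap. The difference of side means lay below 0 in 17 of 18, and was at least 1.5-fold lower in 13, with a median of -0.75 beside -0.0055 over all kept genes. The values chose the sides, and the list was drawn up with them known, so these counts describe the pattern and do not test it.

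In pathway order, the first enzyme measured was Hmgcs1, the HMG-CoA synthase that feeds the mevalonate pathway. It stood at 10.69 and 10.72 with palmitic and oleic acid, against 11.80 and 11.57 with linoleic acid and in the control. The mevalonate kinases Mvk and Pmvk, next in line, were lower, with differences of -0.43 and -0.66. Mvd, the decarboxylase that follows them, was at 9.16 and 8.75 against 10.01 and 9.75. Idi1, the isomerase that makes the activated isoprene unit, was at 10.16 and 10.12 against 11.26 and 11.20. Its 2 probes gave the same difference, -1.09. In these 3 enzymes linoleic acid gave the highest array, with the control close below.

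The enzymes that join isoprene units and build squalene followed the same order. Fdps, farnesyl diphosphate synthase, was lower, with a difference of -0.62. Fdft1, squalene synthase, was at 10.66 and 10.49 with palmitic and oleic acid, against 11.43 and 11.35 with linoleic acid and in the control. Sqle, the squalene epoxidase that is a control point of the pathway, was at 10.05 and 9.66 against 10.90 and 10.69. Ggps1, which makes geranylgeranyl diphosphate on a side branch that does not lead to sterols, was the 1 enzyme with a positive difference, 0.15, and its sides overlapped at 9.04 and 8.70 against 8.72 and 8.72.

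The sterol ring enzymes were split. Lss, lanosterol synthase, closes the ring and stood at 9.003 and 8.77 with palmitic and oleic acid, against 10.25 and 9.90 with linoleic acid and in the control. Cyp51, the lanosterol demethylase, was at 9.94 and 9.59 against 10.83 and 10.72. Hsd17b7, a ketosteroid reductase of the demethylation complex, was at 9.99 and 9.84 against 11.32 and 10.89. All 3 had gaps between 0.78 and 0.90. Msmo1 and Nsdhl, which act in the same complex, had gaps of 0.61 and 0.58, and the desaturase Sc5d one of 0.50. The 3 other late enzymes did not separate. Tm7sf2, a sterol reductase, read 8.17 and 8.38 with palmitic and oleic acid, against 8.33 and 8.41 with linoleic acid and in the control. Ebp, a sterol isomerase, read 9.87 and 10.01 against 9.98 and 9.98. Dhcr7, which completes cholesterol, read 8.02 and 8.15 against 8.12 and 8.13. Within the 18 enzymes, palmitic acid lay above oleic acid in 13 and linoleic acid above the control in 14. Over all 11174 kept genes the counts were 5125 and 7288, so linoleic acid lay above the control in most genes of any kind.

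**Figure D2:**
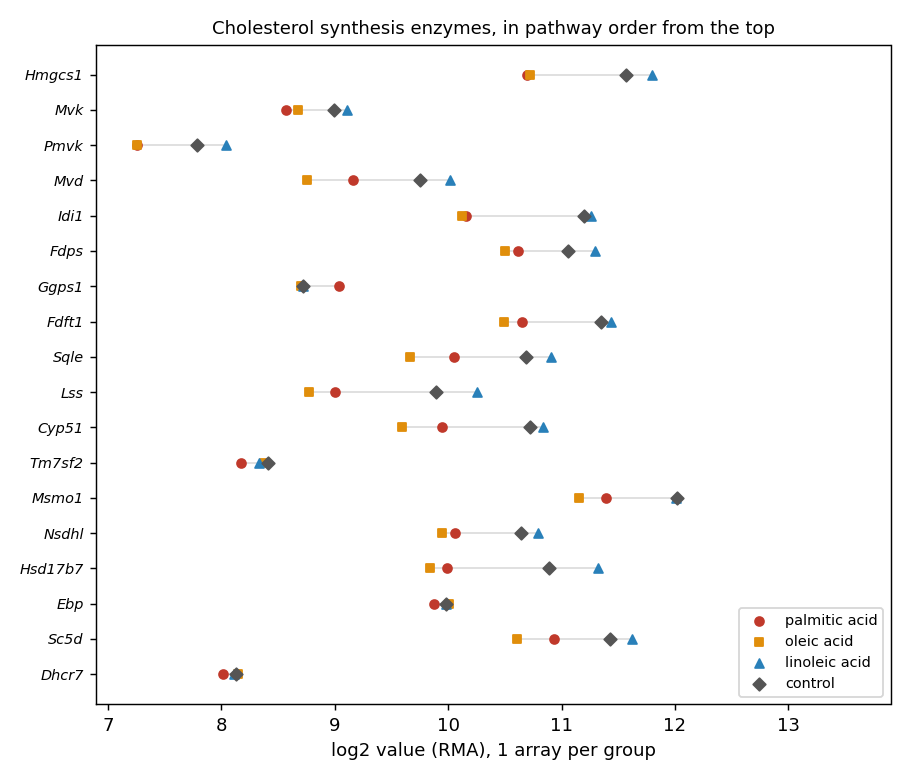
Log2 values (RMA) of the 18 cholesterol synthesis enzymes on each of the 4 arrays, in pathway order from the top. In 14 enzymes the palmitic and oleic acid symbols lie left of both others, and Ggps1, Tm7sf2, Ebp and Dhcr7 overlap.

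The promoters of 4 of these enzymes are shown because they carry the letter pattern that the group had in common, the inverted CCAAT box ATTGG. NF-Y, a general transcription factor, binds CCAAT boxes and is known to act together with SREBP at sterol genes. Each is the 300 bases from 250 before to 50 after an annotated start, read on the gene's strand, from RefSeq on build GRCm38.p6. Capitals mark ATTGG on either strand and, in Hmgcs1, the sterol regulatory element TCACCCCAC. Hmgcs1 lies at chr13:119690101-119690400 (+), Idi1 at chr13:8885356-8885655 (+), Lss at chr10:76531355-76531654 (+) and Hsd17b7 at chr1:169969156-169969455 (-).
Hmgcs1: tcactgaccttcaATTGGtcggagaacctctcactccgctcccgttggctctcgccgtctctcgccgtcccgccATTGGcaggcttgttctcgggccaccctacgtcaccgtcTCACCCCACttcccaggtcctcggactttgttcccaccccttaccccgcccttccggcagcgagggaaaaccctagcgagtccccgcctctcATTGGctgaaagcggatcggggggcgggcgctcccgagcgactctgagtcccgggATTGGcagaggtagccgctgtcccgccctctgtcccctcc
Idi1: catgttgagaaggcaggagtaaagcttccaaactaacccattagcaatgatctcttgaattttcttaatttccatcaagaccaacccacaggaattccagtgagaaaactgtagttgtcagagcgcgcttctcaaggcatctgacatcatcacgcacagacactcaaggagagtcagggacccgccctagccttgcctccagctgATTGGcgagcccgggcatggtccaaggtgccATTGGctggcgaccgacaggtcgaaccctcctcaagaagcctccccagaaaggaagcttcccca
Lss: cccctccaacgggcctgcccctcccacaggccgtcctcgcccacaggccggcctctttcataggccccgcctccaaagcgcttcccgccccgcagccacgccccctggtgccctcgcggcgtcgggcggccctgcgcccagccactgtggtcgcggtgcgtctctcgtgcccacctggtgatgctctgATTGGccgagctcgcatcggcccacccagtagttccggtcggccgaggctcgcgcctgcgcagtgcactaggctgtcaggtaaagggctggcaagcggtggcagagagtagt
Hsd17b7: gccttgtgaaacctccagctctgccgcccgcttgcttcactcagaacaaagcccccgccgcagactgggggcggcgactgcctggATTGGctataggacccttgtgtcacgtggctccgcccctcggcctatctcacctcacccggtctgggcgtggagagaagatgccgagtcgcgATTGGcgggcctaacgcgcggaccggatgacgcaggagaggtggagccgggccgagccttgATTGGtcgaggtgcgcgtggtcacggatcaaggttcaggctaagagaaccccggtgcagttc

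Exact matches were counted on both strands in all RefSeq promoters of this length. ATTGG was found for 15 of the 15 cholesterol enzymes that had a promoter (100%), against 3688 of 8934 kept genes (41.3%) and 41.1% of all 27025 genes with a promoter. The 15 include Ggps1, Tm7sf2, Ebp and Dhcr7, whose sides overlapped, so the pattern does not set the separated enzymes apart. A gene counted when any of its promoters matched, and Dhcr7 and Pmvk each also had a promoter without it. Among the 22 lower genes with a 1.5-fold gap, 15 had a promoter and 11 held ATTGG (73.3%), and among the 9 higher genes 3 of 9 did (33.3%). The 2 sets overlap, since 9 of the 22 are cholesterol enzymes. Of the 11 with ATTGG, Hmgcs1, Idi1, Mvd, Lss, Cyp51, Msmo1 and Hsd17b7 are cholesterol enzymes already counted. Outside that list, Gpr85, Itgb8, Kcnj2 and Mylip held ATTGG, and Elovl6, Fads2, Ptx3 and Shisa3 did not. At the looser gap of 0.25 the share was 43 of 89 lower genes (48.3%) and 24 of 68 higher genes (35.3%). The sterol regulatory element, searched as TCACNCCAC, was found in 1 of 15 enzymes, Hmgcs1, and in 1.40% of kept genes. The E-box CACGTG was found in 3 of 15 enzymes, against 11.8% of kept genes. The nuclear receptor repeat, 2 copies of AGGTCA with 1 base between, was in 0 of 9 higher genes and 0.0224% of kept genes, and the AP-1 pattern TGANTCA in 2 of 9, Hilpda and Hamp, and 6.38% of kept genes. None of these patterns contains another. A match shows letters in this window and not a binding site.

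Fatty acid synthesis and desaturation genes were lower as a block. Of 24 measured, 19 were kept, and 15 of them were lower and 0 higher without overlap. All 19 had a difference below 0, with a median of -0.19. Scd2, a desaturase that places the first double bond in saturated fatty acids, was the lowest of all genes in the comparison. It stood at 9.87 and 9.46 with palmitic and oleic acid, against 11.38 and 11.15 with linoleic acid and in the control, a 3.03-fold difference. Scd1, its relative, read 8.89 and 8.77 against 9.38 and 9.20, a difference of -0.46. Probes of such close relatives may bind each other's transcripts.

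Fads2, the desaturase that starts the conversion of linoleic acid to longer polyunsaturated fatty acids, read 8.77 and 8.83 with palmitic and oleic acid, against 9.83 and 9.75 with linoleic acid and in the control. Elovl6, which lengthens palmitic acid to stearic acid, read 7.74 and 7.99 against 8.82 and 8.75. Both genes had linoleic acid as their highest array, slightly above the control. Fasn, fatty acid synthase, was at 9.42 and 9.01 against 10.31 and 9.96, with a gap of 0.55. Acaca, the acetyl-CoA carboxylase that makes its substrate, had a difference of -0.52, and Acly, which makes cytosolic acetyl-CoA from citrate, one of -0.30. Fads1, the next desaturase after Fads2, differed by -0.12.

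The regulators of these enzymes differed less than the enzymes. Among 12 kept genes of sterol sensing and import 4 were higher and 2 lower, with a median of 0.02. Stard4, a cytosolic sterol carrier, was the only one past the 1.5-fold gap, at 8.59 and 8.33 with palmitic and oleic acid, against 9.57 and 9.18 with linoleic acid and in the control. Srebf2, the SREBP gene of cholesterol synthesis, read 11.40 and 11.12 against 11.66 and 11.37, and palmitic acid lay just above the control. Insig1, which retains the SREBP complex in the endoplasmic reticulum, read 12.41 and 11.44 against 12.45 and 12.23, so that only oleic acid stood apart from the rest. Insig2, its relative, was higher by 0.32, and Npc1, which exports cholesterol from lysosomes, by 0.19. Srebf1 overlapped.

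Among 10 kept targets of the LXR sterol receptors 2 were higher and 3 lower, beside 13.8% and 16.5% of all kept genes. Mylip, a ubiquitin ligase that marks the LDL receptor for degradation, read 9.35 and 9.52 with palmitic and oleic acid, against 10.46 and 10.32 with linoleic acid and in the control. Rnf145, another ubiquitin ligase of sterol control, read 10.18 and 10.93 against 11.12 and 10.95, so that palmitic acid alone was far below. Abca1, which exports cholesterol to apolipoproteins, was lower by a difference of -0.31, while Abcg1 overlapped. Apoe, the apolipoprotein of macrophage lipid export, was higher by 0.02 and Pltp, phospholipid transfer protein, by 0.07.

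The percentages of separated members by list are drawn against the share of all kept genes. Each list count in this report is to be read beside those shares, 13.8% higher and 16.5% lower.

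**Figure D3:**
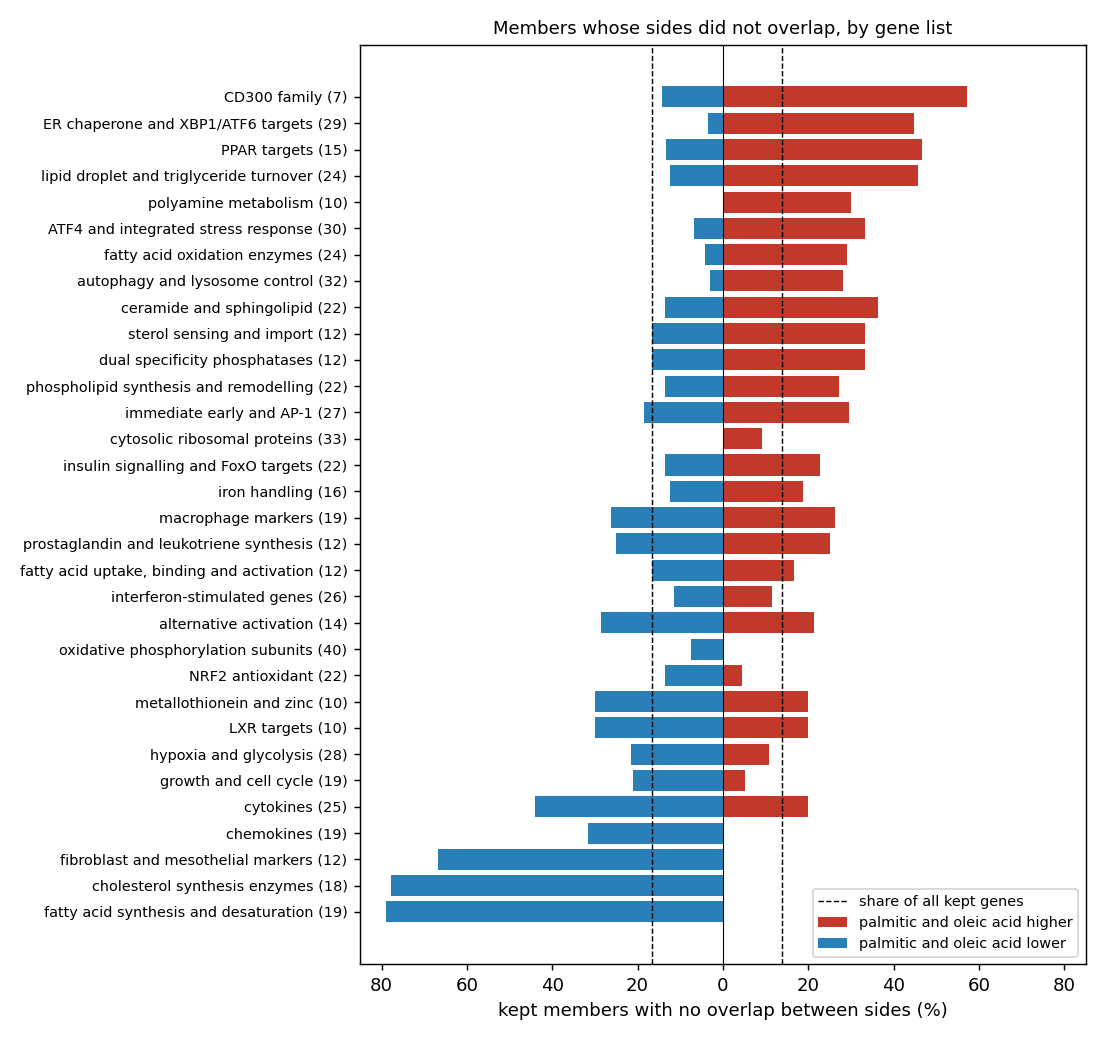
Percent of each list's kept members whose sides did not overlap, with palmitic and oleic acid higher (right, red) or lower (left, blue); the number of kept members follows each name and dashed lines mark the shares of all kept genes, 13.8% higher and 16.5% lower. Cholesterol synthesis and fatty acid synthesis reach farthest to the left, with 77.8% and 78.9%.

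Outside lipid metabolism, the higher genes with a 1.5-fold gap included 2 phosphatases of MAP kinases. Dusp1, an early-response phosphatase of p38 and JNK, stood at 12.60 and 12.52 with palmitic and oleic acid, against 11.84 and 11.65 with linoleic acid and in the control. Dusp10, which acts on the same kinases, read 9.57 and 8.86 against 8.20 and 8.17, with palmitic acid well above oleic acid. Of 12 kept phosphatases of this family 4 were higher and 2 lower, beside 13.8% and 16.5% of all kept genes. Dusp5, a nuclear ERK phosphatase, was higher by 0.45 and Dusp2 lower by a difference of -0.43.

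Immediate early genes were divided, with 8 higher and 5 lower of 27 kept, beside 13.8% and 16.5% of all kept genes. Fos, a subunit of the AP-1 transcription factor, read 7.48 and 7.42 with palmitic and oleic acid, against 6.97 and 6.84 with linoleic acid and in the control. Egr1, a zinc finger factor of growth signals, read 8.78 and 8.85 against 8.42 and 8.31. These genes stood at like levels in both fatty acids of the higher side. Jun, the partner of Fos, read 11.52 and 10.20 against 10.02 and 9.99, and Csrnp1, a nuclear protein of early responses, 11.51 and 10.35 against 10.05 and 9.93. In this pair palmitic acid lay more than 1 log2 unit above oleic acid, and oleic acid lay nearer to the other side. Nr4a3, an orphan nuclear receptor, went the other way, at 8.58 and 8.55 against 9.29 and 9.15.

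Surface receptors and signalling proteins filled most of the other places among the higher genes. Cd300a, an inhibitory receptor for phosphatidylserine and phosphatidylethanolamine, read 9.77 and 9.91 with palmitic and oleic acid, against 8.82 and 8.96 with linoleic acid and in the control. Cd300lb, an activating relative, read 8.47 and 8.01 against 7.46 and 7.24, and Cd300lf was higher by 0.63. Of 7 kept CD300 genes 4 were higher and 1 lower, the lower one being Cd300e with a difference of -0.36. The genes of this family are related in sequence, and whether a probe takes signal from its relatives was not tested. Gab1, a docking protein of growth factor receptors, read 10.24 and 9.90 against 9.30 and 9.28. Serpinb9, an inhibitor of granzyme B with close relatives in the mouse, read 8.16 and 8.09 against 7.33 and 7.47.

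Of the remaining higher genes by gap, Tnfrsf26, a receptor of the TNF receptor superfamily, had a gap of 0.58, and Eps8, an actin regulator and receptor substrate, one of 0.49. Smim3, a small membrane protein gene, had 0.47 and the ubiquitin ligase gene Rnf144b 0.45. Smox, spermine oxidase, read 10.20 and 10.82 with palmitic and oleic acid, against 9.75 and 9.58 with linoleic acid and in the control. Of 10 kept genes of polyamine metabolism 3 were higher and 0 lower, with Arg2, the mitochondrial arginase, higher by 0.40.

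Of 16 kept iron genes 3 were higher and 2 lower, shares near those of all kept genes (13.8% and 16.5%). Hamp, which codes for hepcidin, the peptide that closes the iron exporter ferroportin, stood at 9.31 and 9.28 with palmitic and oleic acid, against 8.11 and 7.99 with linoleic acid and in the control. Its near-identical copy Hamp2 read 7.64 and 7.71 against 7.34 and 7.50, and probes for the 2 cannot be taken as independent. Cp, the ferroxidase ceruloplasmin, read 8.81 and 9.54 against 10.44 and 10.09, a difference of -1.08. Steap4, a metalloreductase, was lower by a difference of -0.52. The gene of ferroportin itself, Slc40a1, was below the brightness filter.

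Several lower genes with a 1.5-fold gap code for receptors, channels and secreted proteins. Shisa3, an endoplasmic reticulum protein that holds back Wnt and FGF receptors in frog embryos, read 9.37 and 9.49 with palmitic and oleic acid, against 10.84 and 10.70 with linoleic acid and in the control. Its gap of 1.21 was exceeded only by Scd2 among the lower genes. Gpr85, an orphan receptor, read 8.48 and 9.20 against 10.00 and 9.97, and Ptx3, the long pentraxin that binds microbes and complement, 8.20 and 8.29 against 9.02 and 8.97. Itgb8, the integrin subunit that activates latent TGF-beta, read 10.10 and 10.57 against 11.27 and 11.19. Kcnj2, an inward rectifier potassium channel, and Kctd12b, of the channel tetramerisation domain family, had gaps of 0.60 and 0.64. Kcnj2 was dim on the palmitic and oleic acid arrays, at 6.78 and 6.30, and reached the filter only on the linoleic acid and control arrays.

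Pdgfrb, the platelet-derived growth factor receptor of fibroblasts and pericytes, read 8.74 and 9.33 with palmitic and oleic acid, against 10.20 and 10.04 with linoleic acid and in the control. It is a marker of cells other than macrophages, and some other markers of these cells lay on the same side, with much smaller gaps. Of the 12 kept fibroblast and mesothelial markers 8 were lower and 0 higher, with a median difference of -0.18. The gap was 0.71 in Pdgfrb and between 0.0093 and 0.12 in the other lower ones. Pdgfra, the related receptor, read 8.33 and 9.13 against 9.26 and 9.19, so that palmitic acid alone was far below. The mesothelial markers Msln, Krt8 and Wt1 overlapped, with oleic acid as the highest array. Krt18, a keratin of the same list, did separate, at 7.07 and 7.14 against 7.30 and 7.26, with the gap of 0.12. The summed linear level of the 12 kept markers was 6122 with palmitic acid and 6713 with oleic acid. It was 7684 with linoleic acid and 7362 in the control, and Pdgfrb is part of these sums. The collagen genes Col1a1 and Col1a2 differed by -0.22 and -0.18, and Ccn2, a matrix protein gene, overlapped with palmitic acid highest at 9.89 and oleic acid lowest at 8.47. Of the 6 markers below the filter, Lum was the dimmest, between 3.76 and 4.01. In pooled RNA of a culture, fewer cells of a type and less RNA per cell cannot be told apart. The part of such cells in the lower genes was not tested.

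Markers of other cells that could be present were mostly below the filter. Kept were 3 of 12 neutrophil, 2 of 8 B cell, 1 of 10 T and NK cell, 2 of 11 mast cell and eosinophil, 2 of 8 dendritic cell and 2 of 5 erythroid and platelet markers. Of these 12 markers 1 was higher and 4 were lower without overlap. Cd22, a B cell receptor, was the higher one, with a difference of 0.24. It read between 10.15 and 10.44, while Cd79b, the other B cell marker kept, read between 7.27 and 7.53. Kit, the stem cell factor receptor of mast cells, differed by -0.62, the gelatinase Mmp9 of neutrophils by -0.31, Zbtb46 of dendritic cells by -0.12 and Itga2b of platelets by -0.08. Kit reached the filter only on the linoleic acid and control arrays, at 7.64 and 7.30, and read 6.85 with palmitic and with oleic acid. The other 7 of the 12 markers overlapped, Siglecf of eosinophils among them. Of the neutrophil list, Mmp8 and S100a8 were kept beside Mmp9, while Ly6g and Mpo were below the filter. Which cells gave the Cd22 and Mmp9 signals was not tested.

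The 22 lower genes also held a microRNA gene, Mir146, named after its values were seen since small RNA genes were left out of the ranking. Its probe reads a precursor or host transcript and not the mature RNA. It stood at 6.57 and 6.26 with palmitic and oleic acid, against 7.33 and 7.19 with linoleic acid and in the control, dim throughout. Only the linoleic acid and control arrays reached the filter. The mature miR-146a-5p, a brake on signalling from Toll-like receptors that targets Traf6 and Irak1, is shown with its seed (bases 2 to 8) in capitals, from RefSeq, at chr11:43374435-43374456 (-) of GRCm38.p6.
miR-146a-5p: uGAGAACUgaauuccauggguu

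Among cytokines lower genes outnumbered higher ones, with 11 and 5 of 25 kept and a median difference of -0.08. Over all kept genes 16.5% were lower and 13.8% higher. Il6, an inflammatory and acute-phase cytokine, read 12.46 and 12.63 with palmitic and oleic acid, against 12.96 and 13.05 with linoleic acid and in the control. Il12b, the subunit shared by interleukins 12 and 23, read 12.18 and 12.19 against 12.59 and 12.60. Il12a, the other subunit of interleukin 12, was lower by a difference of -0.30. Il23a, which pairs with Il12b in interleukin 23, was instead higher, at 11.11 and 11.33 against 10.83 and 10.71. Il18, an inducer of interferon gamma, read 9.86 and 10.35 against 10.85 and 10.72. Csf2, which codes for GM-CSF, read 7.44 and 8.56 against 8.78 and 8.97, with palmitic acid far below the others.

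Of 19 kept chemokines 0 were higher and 6 lower, beside 13.8% and 16.5% of all kept genes. Ccl22, a ligand of CCR4, read 10.03 and 10.95 with palmitic and oleic acid, against 11.33 and 11.19 with linoleic acid and in the control. Cxcl9, an interferon-induced ligand of CXCR3, read 8.88 and 10.09 against 10.56 and 10.17. In both, the palmitic acid array was the one set apart and oleic acid lay near the control. Interferon-stimulated genes were even, with 3 higher and 3 lower of 26 kept, and genes of alternative activation had 3 and 4 of 14.

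Of 29 kept chaperone and XBP1 or ATF6 target genes of the endoplasmic reticulum 13 were higher and 1 lower, with a median of 0.17, and palmitic acid lay above oleic acid in 26 of 29. The median was 0.057 without the palmitic acid array, and 22 members were higher with equal array medians. In that setting genes of any kind called higher also rose, from 1540 to 2460. Hspa5, the chaperone BiP, read 13.35 and 13.06 with palmitic and oleic acid, against 12.95 and 13.02 with linoleic acid and in the control. Creld2, a secreted chaperone, was higher by 0.37 and Pdia4, a disulfide isomerase, by 0.35. Of 30 kept genes of ATF4 and the integrated stress response 10 were higher and 2 lower. Chac1, a glutathione-degrading enzyme, read 9.62 and 8.49 against 8.16 and 8.36, and Ddit3, the factor CHOP, was higher by 0.47 with a gap of 0.02. Among 32 kept autophagy and lysosome genes 9 were higher and 1 lower, beside 13.8% and 16.5% of all kept genes. Of 22 kept NRF2 targets 1 was higher and 3 were lower.

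Insulin and FoxO target genes had 5 higher and 3 lower of 22 kept, beside 13.8% and 16.5% of all kept genes. They were led by Fbxo32, the muscle ubiquitin ligase atrogin-1. Fbxo32 read 8.54 and 7.66 with palmitic and oleic acid, against 7.13 and 7.27 with linoleic acid and in the control. Of 22 kept ceramide and sphingolipid genes 8 were higher and 3 lower. Ugcg, glucosylceramide synthase, read 12.41 and 11.80 against 11.60 and 11.49. Sptlc2, a subunit of the palmitoyltransferase that starts ceramide synthesis, was higher by 0.22. Of 28 kept hypoxia and glycolysis genes 3 were higher and 6 lower, and Adm, the peptide adrenomedullin, differed by -0.70. Phospholipid synthesis genes had 6 and 3 of 22, and Pcyt2, which makes CDP-ethanolamine, differed by -0.60.

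The distance within a side was often as large as the distance between sides. Over the kept genes the sum of squared log2 differences was divided among 3 independent contrasts. The contrast between sides held 37.8%, palmitic against oleic acid 51.0%, and linoleic acid against the control 11.2%. Palmitic and oleic acid were the least alike pair of arrays, and their difference had a robust SD of 0.211, beside 0.110 for linoleic acid and the control. Palmitic and oleic acid were at least 1.5-fold apart in 388 kept genes, and linoleic acid and the control in 8.

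Among the genes with a 1.5-fold gap, palmitic and oleic acid were no closer to each other than among kept genes as a whole. The median distance between them was 0.15 in the 9 higher genes and 0.25 in the 22 lower genes, beside 0.14 over all kept genes. They were at least 1.5-fold apart in 1 of 9 higher genes, Dusp10, and in 2 of 22 lower genes, Gpr85 and Pdgfrb. Linoleic acid lay above the control in 6 of 9 higher genes and in 19 of 22 lower genes, against 7288 of all 11174 kept genes. The lower genes thus mostly had linoleic acid as their highest array. The lowest array was oleic acid in 12 of the 22 and palmitic acid in 10. When kept genes were ranked by mean brightness into 4 equal classes, the brightest class held 4 of the 9 higher and 9 of the 22 lower genes, and the class below it 2 and 9.

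**Figure D4:**
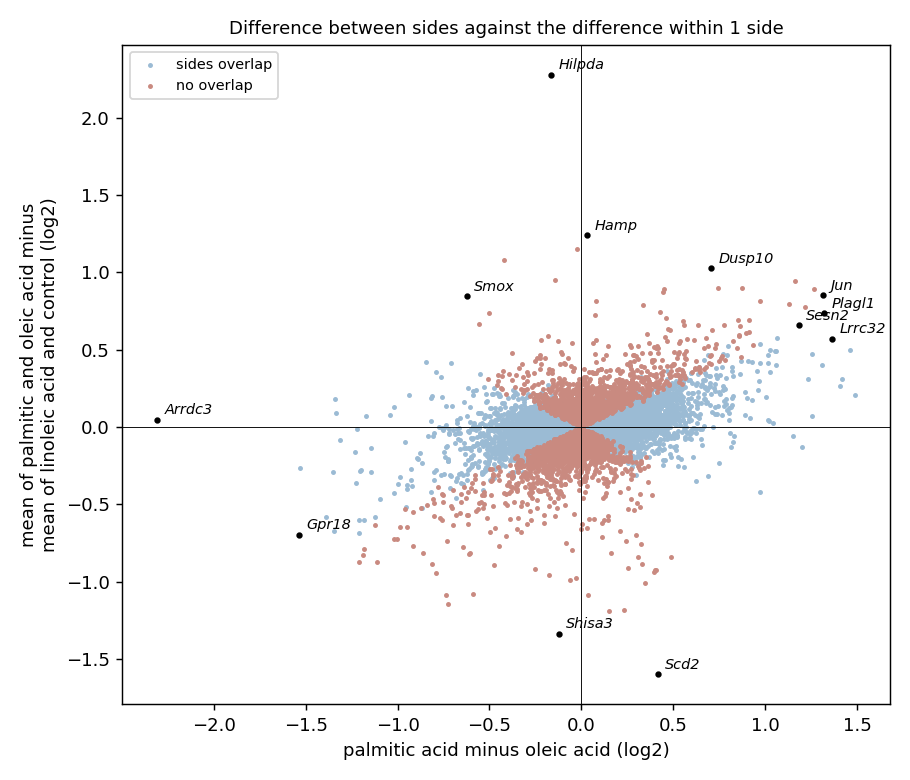
Each point is a kept gene: across, palmitic acid minus oleic acid; upward, the mean of palmitic and oleic acid minus the mean of linoleic acid and control (both log2). Genes with no overlap are red and the others blue. Hilpda, Hamp, Scd2 and Shisa3 lie far from 0 upward or downward and near 0 across, and Arrdc3 lies at -2.31 across and 0.05 upward.

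Some large differences between side means came from palmitic acid alone. Of the 42 genes at least 1.5-fold higher 2 overlapped, and of the 75 lower 5 did. Plagl1, a zinc finger factor, read 10.36 and 9.04 with palmitic and oleic acid, against 9.04 and 8.88 with linoleic acid and in the control. Sesn2, a stress-induced inhibitor of mTORC1, read 10.03 and 8.85 against 8.86 and 8.71. Lrrc32, a receptor that displays latent TGF-beta, read 10.51 and 9.14 against 9.36 and 9.15. In all 3, oleic acid lay at the level of the other side. Dnajb9, Kitl and Plekhm1 followed, with differences of 0.57, 0.54 and 0.52.

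In the lower direction the same held for Gpr18, Maf, Icosl, Samsn1, Rasgrp1 and Ch25h. Gpr18, a lipid-binding receptor, read 7.65 and 9.18 with palmitic and oleic acid, against 9.14 and 9.09 with linoleic acid and in the control. Maf, a transcription factor of macrophage identity, read 9.58 and 10.78 against 11.02 and 10.71. Icosl, the ligand of the costimulator ICOS, read 8.39 and 9.74 against 9.77 and 9.71. Palmitic acid was the lone low array in each. Ch25h, which makes 25-hydroxycholesterol, an oxysterol that holds back SREBP processing, read 7.90 and 9.02 against 9.17 and 8.92.

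The side contrast can also be read as 2 differences that share no array. The difference between palmitic and linoleic acid correlated with that between oleic acid and the control at r = 0.194 across the 11174 genes, and the difference between palmitic acid and the control with that between oleic and linoleic acid at r = 0.034. Genes are not independent replicates, and quantile normalisation ties the arrays, so these are descriptions. At least 1.5-fold higher in both of the first pair were 12 genes, out of 177 and 42, and 29 were lower in both, out of 225 and 38. In the second pair the counts were 11, out of 242 and 38, and 28, out of 157 and 79. Genes past 1.5-fold in opposite directions numbered 0 and 5 in the first pair and 4 and 3 in the second.

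**Figure D5:**
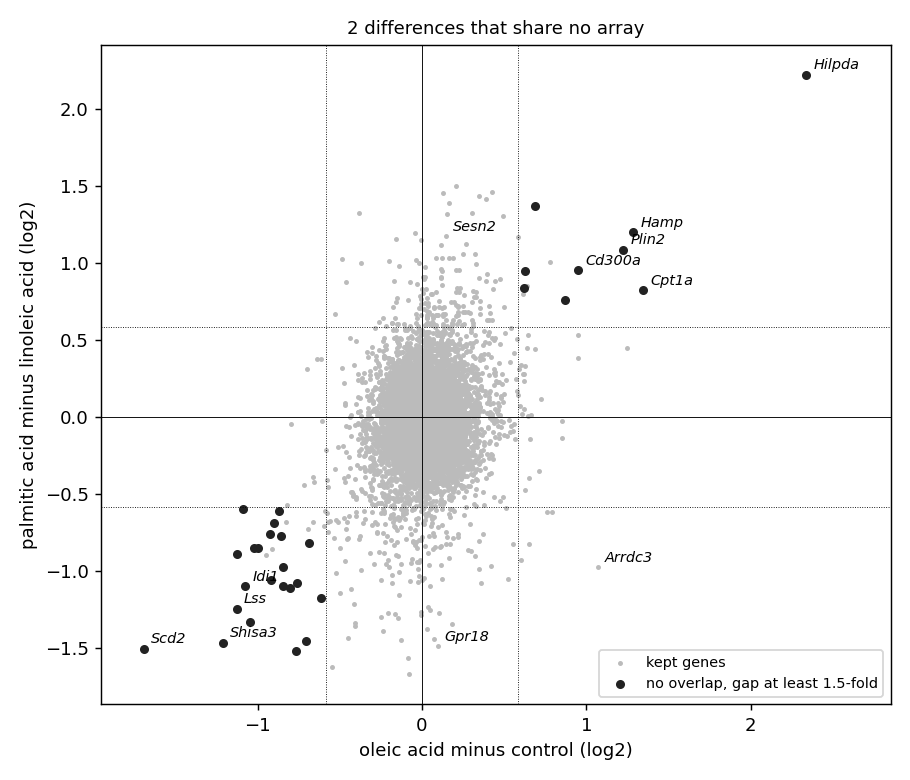
Each grey point is a kept gene: across, oleic acid minus control; upward, palmitic acid minus linoleic acid (both log2), with dotted lines at 1.5-fold. Black points are the 31 genes with no overlap and a gap of at least 1.5-fold, and Hilpda lies at 2.34 across and 2.22 upward.

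Where a gene had several probes they could be set against each other. Of 710 such kept genes, 510 had the same sign of difference in every probe. Of the 200 called without overlap, 181 had 1 sign throughout and 89 had no overlap in every probe. All 8 with a gap of at least 0.25 separated in every probe, including Idi1 and Fdft1, the 2 with a 1.5-fold gap. The other 29 genes with that gap rested on 1 probe each.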

How the data were processed

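Gene expression was measured on 1 Affymetrix array per group, each from the pooled RNA of 3 samples. The log2 values that the authors deposited (a scale read here from their range) were computed with RMA, per the submitters' processing notes. RMA subtracts background, applies quantile normalisation and combines probes. For its version and summary level, and for the genome build, the entry is: not given in the sources used here. Of 35556 probes the platform annotation listed 23410, with 1 gene for 21789 and several for 1621, and 12146 had none. Gene symbols were compared through Entrez IDs with RefSeq of GRCm38.p6, which held 21698 of the IDs, and 0 were updated.

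Probes of exactly 1 gene were averaged per gene (999 genes had several probes). The brightness filter is not a detection call. Differences, overlap and gaps were computed in Python 3.11.15 with pandas 2.3.3 and numpy 2.4.6, and the counting was tested on simulated data. Precision is limited by the number of arrays, and no p-value was computed.

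The members, the 30 gene lists and 8 marker lists (784 genes, of which 60 are not analysed here) and the naming rule were chosen with earlier results of these data known. Named were the 15 genes each way with the largest gap, the 6 each way with the largest difference among overlapping genes, up to 6 members of a list by size, cholesterol enzymes in pathway order, genes at the thresholds and genes with palmitic and oleic acid on opposite sides of both other arrays. Predicted genes, clone names, some large receptor families and small RNA genes were left out of the rankings. Some other genes named with their values, such as Sqle, Itgb8, Kcnj2, Mvd, Stard4, Srebf2, Cd36 and the overlapping sterol genes, were chosen after their values were seen. Alternatives were equal array medians, repeated quantile normalisation, no filter, a filter at the 75th percentile or on the mean, the brightest probe per gene, dim values set to the median, and leaving out each array.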

Additional observations from a re-analysis of the deposited data

Results flagged for a closer look

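Arrdc3 is an arrestin-domain gene involved in receptor trafficking. Among the genes open to naming, it was the one whose palmitic and oleic acid values lay on opposite sides of both other arrays by at least 1.5-fold. It read 7.04 with palmitic acid and 9.35 with oleic acid, against 8.02 with linoleic acid and 8.28 in the control. Palmitic acid minus control was -1.24 and oleic acid minus control was 1.07, while the difference of side means was 0.05. The difference between these effects was not tested, since each group is 1 array.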

How the results depend on the processing

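With equal array medians the genes without overlap numbered 2460 higher and 1202 lower, which turned their balance, the endoplasmic reticulum genes without overlap 22 higher and the fibroblast and mesothelial markers 5 lower. Without the filter 2441 genes were higher and 3764 lower, as more genes were counted. With the filter at the 75th percentile 891 were higher and 801 lower, and the PPAR median was 0.33, while a filter on the mean gave 0.18. Leaving out 1 array left 1 array on a side, so that fewer values had to separate. Genes without overlap then ran between 2394 and 4010 higher and between 2781 and 4840 lower. Those with a 1.5-fold gap ran between 11 and 161 higher and between 22 and 145 lower. Those with a 1.5-fold difference ran between 33 and 201 higher and between 51 and 178 lower, the highest counts being without oleic acid. Fatty acid oxidation genes without overlap ran between 8 and 17, and their median between -0.071 (without oleic acid, reversed) and 0.10. Endoplasmic reticulum genes ran between 14 and 23 with medians between 0.057 and 0.21. Medians ran between -0.88 and -0.66 for cholesterol enzymes and between -0.30 and -0.15 for fatty acid synthesis. The sign of a named gene also turned without palmitic acid in Gpr18 (between -1.465 and 0.070 over the arrays left out), Samsn1 (between -1.21 and 0.0032) and Lrrc32 (between -0.11 and 1.25). Arrdc3 (between -1.11 and 1.20) and Cyb561 (between -0.10 and 0.15), both near 0, took either sign. The causes were not tested. Of the 9 higher genes with a 1.5-fold gap, all 9 kept it with equal medians, and of the 22 lower genes 18 did, without Kcnj2, Msmo1, Mvd and Stard4. Kcnj2 and Mir146 also dropped out with the filter at the 75th percentile, the filter on the mean and dim values set to the median. The 75th percentile filter removed Elovl6 and Serpinb9 too. Repeated quantile normalisation gave 24 lower genes, of which 20 were shared, without Kcnj2 and Kctd12b. No paired analysis was possible because the labels carry no replicate numbers and each group is 1 array.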

Other observations

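Probes outside the gene table held few wide gaps. Of 848 bright probes with several genes, 55 were higher and 98 lower without overlap, and 0 and 1 had a gap of at least 1.5-fold. Of 5620 bright probes with no gene listed here, 528 were higher and 799 lower, and 0 and 6 had that gap.

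Of 19 kept growth and cell cycle genes 1 was higher and 4 were lower, beside 13.8% and 16.5% of all kept genes. Mki67, a marker of cycling cells, read 10.12 and 9.99 with palmitic and oleic acid, against 10.74 and 10.57 with linoleic acid and in the control, a difference of -0.60 that is past 1.5-fold. Of 33 kept ribosomal protein genes 3 were higher and 0 lower, and of 40 kept subunits of oxidative phosphorylation 0 and 3. Metallothionein and zinc genes had 2 higher and 3 lower of 10 kept, and prostaglandin and leukotriene genes 3 and 3 of 12.

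The inverted CCAAT box split by strand, a count chosen after seeing the data, lay on the gene's own strand in 12 of 15 cholesterol enzymes, against 25.4% of kept genes.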
